A study of Mus musculus with 7 samples.

Results

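Mitochondrial beta-oxidation and ketone body metabolism were followed in liver RNA through 32 genes, a fixed list matched by symbol to the 23347 genes of the count table. All 32 were found and all 32 passed the filter on low counts that left 15179 genes for testing, so none is missing below. The list covers the carnitine shuttle, the acyl-CoA dehydrogenases, the enzymes of the later steps of the spiral, electron transfer to ubiquinone, ketone bodies, acyl-CoA thioesterases and medium-chain acyl-CoA synthetases.

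The RNA came from whole livers, 4 of B4galt1 flox/flox mice and 3 of animals labelled B4galt1 hep-/-, and each liver gave 1 library. All 7 were male mice on a C57BL/6 background that received the CDAHFD, a high-fat diet lacking choline and defined by L-amino acids, for 15 weeks from an age of 6 to 8 weeks. B4galt1 encodes a Golgi galactosyltransferase. Both groups carry the floxed B4galt1 alleles, and the B4galt1 hep-/- mice also carry Cre driven by the albumin promoter, which is active in hepatocytes and leaves the gene intact in the other cells of the liver. The labels call the littermate flox/flox controls WT. Chow-fed livers were not analysed here, and neither group carried Cre without the floxed alleles, so an effect of Cre cannot be told apart from that of the deleted allele, and whether the differences depend on the diet was not tested. In whole liver, fewer cells of a type and less RNA per cell cannot be told apart either. The labels and the study's methods describe the libraries as coming from different mice.

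Beta-oxidation shortens fatty acyl-CoA in the mitochondrial matrix by 1 acetyl-CoA per turn. Long acyl chains enter as carnitine esters, each turn runs through a dehydrogenation, a hydration, a further dehydrogenation and a thiolysis, and electrons pass to ubiquinone through electron transfer flavoprotein. In liver much of the acetyl-CoA is turned into ketone bodies for use by other organs, above all in fasting, when the nuclear receptor PPARalpha raises the transcription of many of these genes.

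B4galt1 itself was measured at 48.7, 53.0, 49.2 and 51.6 CPM (counts scaled to the library total, with TMM correction) in the flox/flox livers and at 28.4, 23.9 and 53.7 CPM in replicates 1 to 3 labelled hep-/-. Replicate 3 lay above every flox/flox liver on this scale and just below them as FPKM (11.9 against 12.2 to 14.0), so its level was near that of the controls, which goes against its label. The log2 fold change was -0.52 (SE 0.26, adjusted p = 0.181, edgeR quasi-likelihood test with Benjamini-Hochberg adjustment). A count over the whole gene and over all liver cells does not check the removal of an exon in hepatocytes, so every direction below is that of the libraries carrying the label. Total counts were 37838654 to 39668509 in flox/flox libraries and 30608271 to 34586588 in libraries labelled hep-/-, and 3 counts correspond to 0.0690 to 0.0987 CPM. The closest of the 21 pairs of libraries still differed by a chi-square of 60.3 per gene, so no library was a copy of another.

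Of the 32 genes, 12 were lower in livers labelled B4galt1 hep-/- and 0 were higher, where a call required that the adjusted p stay below 0.05 and the log2 fold change pass 0.58 in either direction. Across all genes tested, 7.83% were called lower and 8.0% higher. The 12 were Cpt1a, Acads, Acad10, Acad11, Acad12, Hadha, Hadhb, Echs1, Acaa2, Decr1, Etfdh and Acsm1, and 20 were not called. The 2 members with the greatest positive changes, Cpt1b and Acot2, had adjusted p = 0.0674 and 0.0563 in the edgeR fit. Among the 20 uncalled members, 13 had a negative and 7 a positive log2 fold change. The median log2 fold change was -0.59 over the members and 0.02 over all genes tested. In 17 members every liver labelled hep-/- lay below every flox/flox liver, against 15.0% of all genes tested, and in 1 member every such liver lay above, against 13.6%.

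The count of 12 moved with the libraries used. It was 7 without flox/flox replicate 2, 8 without replicate 1 or without replicate 2 labelled hep-/-, 9 without flox/flox replicate 3 or without flox/flox replicate 4, and 11 without flox/flox replicate 1. The share of all genes called lower moved in the same fits, to 3.16% without flox/flox replicate 2, 5.21% and 3.84% without replicates 1 and 2 labelled hep-/-, 4.71% and 5.35% without flox/flox replicates 3 and 4, and 7.41% without flox/flox replicate 1. Without replicate 3 labelled hep-/-, the library whose B4galt1 level went against its label, 13 were lower and 1, Acot2, was higher. In that fit 7.51% of all genes were called lower, and 982 of 15639 were called higher. Called lower in every one of the 7 fits that left out a library were 7 genes, namely Acads, Acad10, Acad12, Hadha, Hadhb, Echs1 and Etfdh.

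**Figure D1:**
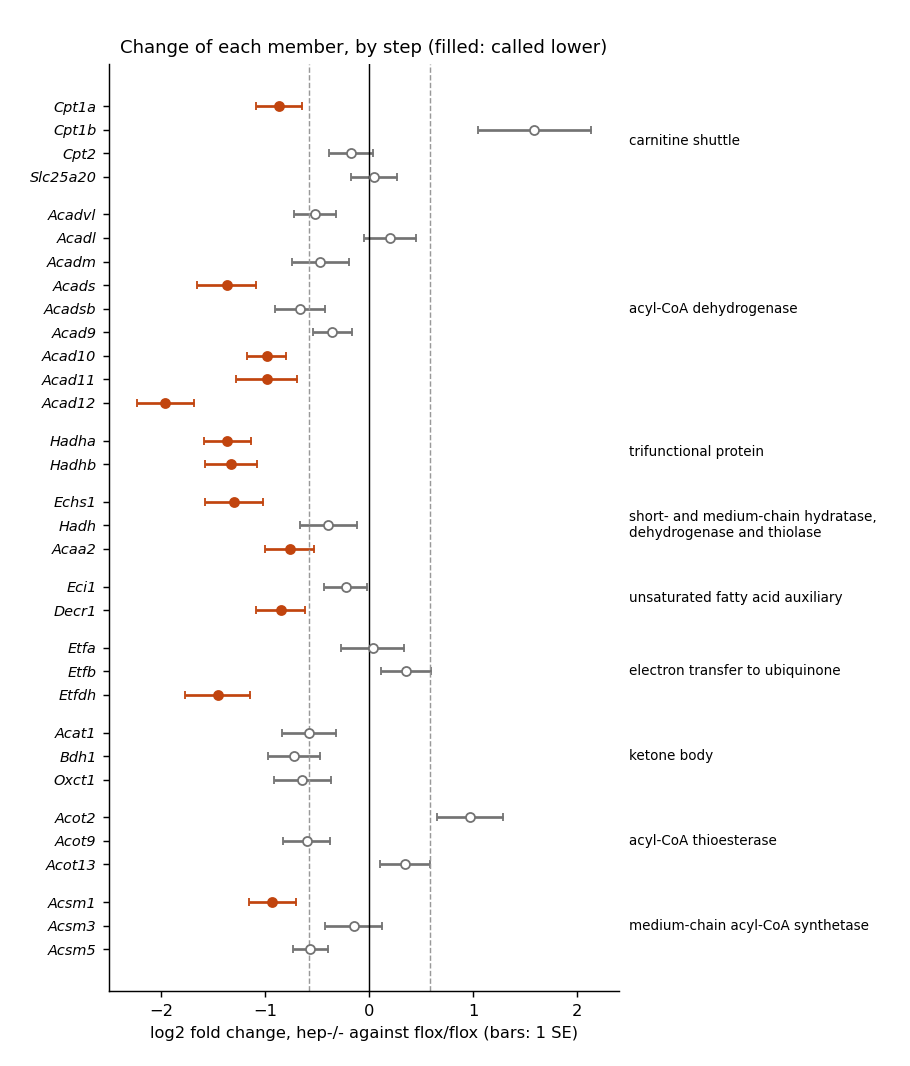
Log2 fold change of each of the 32 members (livers labelled B4galt1 hep-/- against B4galt1 flox/flox, x axis; bars, 1 standard error), grouped by step on the y axis. Filled points are the 12 genes called lower, open points the 20 not called, and the dashed lines mark the fold change threshold of 0.58 in each direction.

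The carnitine shuttle carries long-chain acyl groups into mitochondria. Cpt1a, the liver form of the outer-membrane palmitoyltransferase that controls entry, stood at 983, 1107, 957 and 978 CPM in flox/flox livers and at 571, 415 and 665 CPM in those labelled hep-/-. The highest of the latter lay well under the lowest control, and the log2 fold change was -0.87 (SE 0.22, adjusted p = 0.0254 by edgeR), a 1.83-fold lower level. The call was lost without flox/flox replicate 2 (-0.83, adjusted p = 0.0775 by edgeR), without replicate 1 labelled hep-/- (-0.91, adjusted p = 0.0545) and without replicate 2 labelled hep-/- (-0.70, adjusted p = 0.0582).

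The next 2 proteins of the shuttle were not called. Slc25a20, the carnitine-acylcarnitine translocase of the inner membrane, ran from 191 to 275 CPM in flox/flox livers and from 179 to 273 CPM in the others (log2 fold change 0.05, SE 0.22). Cpt2, which rebuilds acyl-CoA on the matrix side, ran from 156 to 199 CPM and from 121 to 192 CPM (-0.18, SE 0.21). Both overlapped between the groups, and the ratio of Cpt1a to Cpt2 counts within a liver averaged 5.69 ± 0.59 (SD, n = 4) in controls and 3.51 ± 0.58 (SD, n = 3) in livers labelled hep-/-, with no overlap. Ratios of this kind do not depend on the scaling between libraries and are given without a test.

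Cpt1b, the form known from muscle and brown fat, was near the floor. It had 9, 10, 10 and 5 counts in flox/flox livers and 12, 24 and 24 in those labelled hep-/-, or 0.141 to 0.251 CPM against 0.390 to 0.789 CPM. It was the member whose groups separated upward, with a log2 fold change of 1.59 (SE 0.54, adjusted p = 0.0674 by edgeR) that was not called. In the GENCODE vM21 annotation 81.4% of its exonic bases also belong to Gm44502 on the same strand, so its reads cannot be assigned to it alone. Striated muscle markers were close to absent, at a sum of 2.74 to 4.12 CPM in flox/flox livers and 2.01 to 3.53 CPM in livers labelled hep-/- over 8 genes, 2 of which, Pygm and Ryr1, passed the filter on low counts. The 5 adipocyte markers summed to at most 0.211 CPM in any liver.

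The acyl-CoA dehydrogenases take the first step of each turn and differ in the chain length they accept. Acads, the short-chain enzyme, stood at 170, 205, 205 and 190 CPM in flox/flox livers and at 71.3, 43.4 and 108 CPM in those labelled hep-/-. The groups did not overlap, and the log2 fold change was -1.37 (SE 0.28, adjusted p = 0.0105 by edgeR), or 38.7% of the control mean. Acadm, the medium-chain enzyme, was at 461, 742, 754 and 716 CPM against 544, 308 and 594 CPM. Its groups overlapped through the low flox/flox replicate 1, and it was not called by edgeR (-0.47, SE 0.27, adjusted p = 0.255) but was lower in 2 limma fits on FPKM (-0.62, adjusted p = 0.0484 and 0.0476).

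Acadvl and Acadl, which act on longer chains, were not called by edgeR, and Acadvl was called lower in all 3 limma fits on FPKM (adjusted p from 0.00689 to 0.0158). Acadvl, the very-long-chain enzyme of the inner membrane, was at 458, 482, 486 and 534 CPM against 350, 278 and 397 CPM, below every control but not called (-0.52, SE 0.20, adjusted p = 0.0977 by edgeR). Acadl, the long-chain enzyme of the matrix, was at 291, 442, 443 and 480 CPM against 610, 348 and 466 CPM, with overlap (0.20, SE 0.25). The ratio of Acadl to Acadvl averaged 0.841 ± 0.137 (SD, n = 4) in controls and 1.39 ± 0.31 (SD, n = 3) under the hep-/- label, and that of Acadm to Acads was 3.44 ± 0.49 (SD, n = 4) and 6.73 ± 1.12 (SD, n = 3). Neither ratio overlapped between the groups. Exons of Acadvl share 42.9% of their bases with Dvl2 on the opposite strand, and the strand setting of the counting is not given in the sources used here.

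Acad10, Acad11 and Acad12 are dehydrogenases of the same family, of which Acad11 is known to act on hydroxylated fatty acids. Acad12 had the greatest fall of all members, from 13.2, 14.5, 21.6 and 14.7 CPM to 5.42, 3.02 and 3.91 CPM, with a log2 fold change of -1.96 (SE 0.28, adjusted p = 0.00301 by edgeR). Acad10 stood at 28.1, 25.3, 33.7 and 28.6 CPM against 12.5, 15.1 and 16.4 CPM (-0.98, SE 0.19, adjusted p = 0.00856). Both separated the groups fully. Of the distinct 50-base words of the longest Acad12 transcript, 20.3% occur in Acad10, and 18.3% of those of Acad10 occur in Acad12, so reads from that part could have been split between these genes.

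Acad11 was higher in level, at 299, 389, 480 and 292 CPM against 171, 119 and 263 CPM. Its log2 fold change of -0.99 (SE 0.29, adjusted p = 0.0413 by edgeR) was called, but the call was kept only without flox/flox replicate 1 and without replicate 3 labelled hep-/-. Without any 1 of the other 5 libraries, flox/flox replicates 2, 3 and 4 and replicates 1 and 2 labelled hep-/-, it ranged from -1.08 to -0.75 with adjusted p from 0.0514 to 0.104. Acad9, which serves in the assembly of respiratory complex I as well as in dehydrogenation, and Acadsb, the short/branched-chain enzyme of isoleucine breakdown, were not called by edgeR. Acad9 lay below every control at 23.9 to 33.1 CPM against 33.9 to 42.1 CPM (-0.35, SE 0.19). Acadsb overlapped at 31.7 to 63.1 CPM against 60.3 to 85.6 CPM (-0.67, SE 0.24, adjusted p = 0.0790), and was called lower once replicate 3 labelled hep-/- was left out (-0.95, adjusted p = 0.0294), by DESeq2 (-0.66, adjusted p = 0.0463) and in all 3 limma fits on FPKM.

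The mitochondrial trifunctional protein performs the last 3 steps of the turn on long chains and is built from the products of Hadha and Hadhb. Hadha, which carries the hydratase and dehydrogenase activities, stood at 477, 617, 577 and 463 CPM in flox/flox livers and at 203, 167 and 252 CPM in livers labelled hep-/- (log2 fold change -1.37, SE 0.22, adjusted p = 0.00505 by edgeR). Hadhb, the thiolase subunit, stood at 250, 356, 327 and 305 CPM against 141, 80.9 and 148 CPM (-1.33, SE 0.25, adjusted p = 0.00811). Both groups were fully apart for both genes, at 38.8% and 39.8% of the control means. The ratio of Hadha to Hadhb counts averaged 1.73 ± 0.16 (SD, n = 4) in controls and 1.73 ± 0.31 (SD, n = 3) under the hep-/- label, with overlapping ranges of 1.52 to 1.91 and 1.44 to 2.06.

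Hadha and Hadhb lie head to head on chromosome 5 and are read in opposite directions from start sites 273 bases apart in RefSeq on GRCm38.p6, with Hadha on the minus strand. The stretch between the starts that no GENCODE exon covers, chr5:30155163-30155247 on the plus strand, 85 bases with 69.4% G or C, is shown because 2 subunits of 1 enzyme share it and both fell. It holds no AGGTCA on either strand, and so no capitals.
Hadha-Hadhb intergenic stretch: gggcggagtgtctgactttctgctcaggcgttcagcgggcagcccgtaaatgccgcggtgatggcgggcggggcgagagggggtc

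Short and medium chains are handled by separate enzymes in the matrix. Echs1, the short-chain enoyl-CoA hydratase, stood at 200, 247, 282 and 267 CPM in flox/flox livers and at 96.9, 60.9 and 145 CPM in the others, a log2 fold change of -1.30 (SE 0.28, adjusted p = 0.0132 by edgeR) with the groups apart. Acaa2, the matrix thiolase, was among the most abundant members at 769, 912, 908 and 958 CPM and stood at 547, 368 and 651 CPM in livers labelled hep-/- (-0.77, SE 0.24, adjusted p = 0.0478). Its groups did not overlap, but its call depended on the mice and on the fit. With all mice kept, the call was lost with a filter of 1 count in any mouse and with the replicate block. It was lost without any 1 library other than replicate 3 labelled hep-/- (that is, without any flox/flox replicate or without replicate 1 or 2 labelled hep-/-), with log2 fold changes from -0.83 to -0.57 and adjusted p from 0.0547 to 0.115. Hadh, the dehydrogenase between these steps, overlapped at 308, 468, 462 and 476 CPM against 378, 199 and 402 CPM (-0.39, SE 0.27, adjusted p = 0.339).

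Double bonds need auxiliary enzymes. Decr1, the 2,4-dienoyl-CoA reductase, stood at 253, 351, 307 and 384 CPM against 198, 131 and 210 CPM and was called lower (-0.85, SE 0.24, adjusted p = 0.0325 by edgeR). The call held only without flox/flox replicate 1 and without replicate 3 labelled hep-/-. Without flox/flox replicates 2, 3 or 4, or without replicates 1 or 2 labelled hep-/-, it ranged from -0.94 to -0.67 with adjusted p from 0.0534 to 0.0891. Eci1, the enoyl-CoA isomerase, overlapped at 158 to 210 CPM against 122 to 193 CPM (-0.23, SE 0.21).

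**Figure D2:**
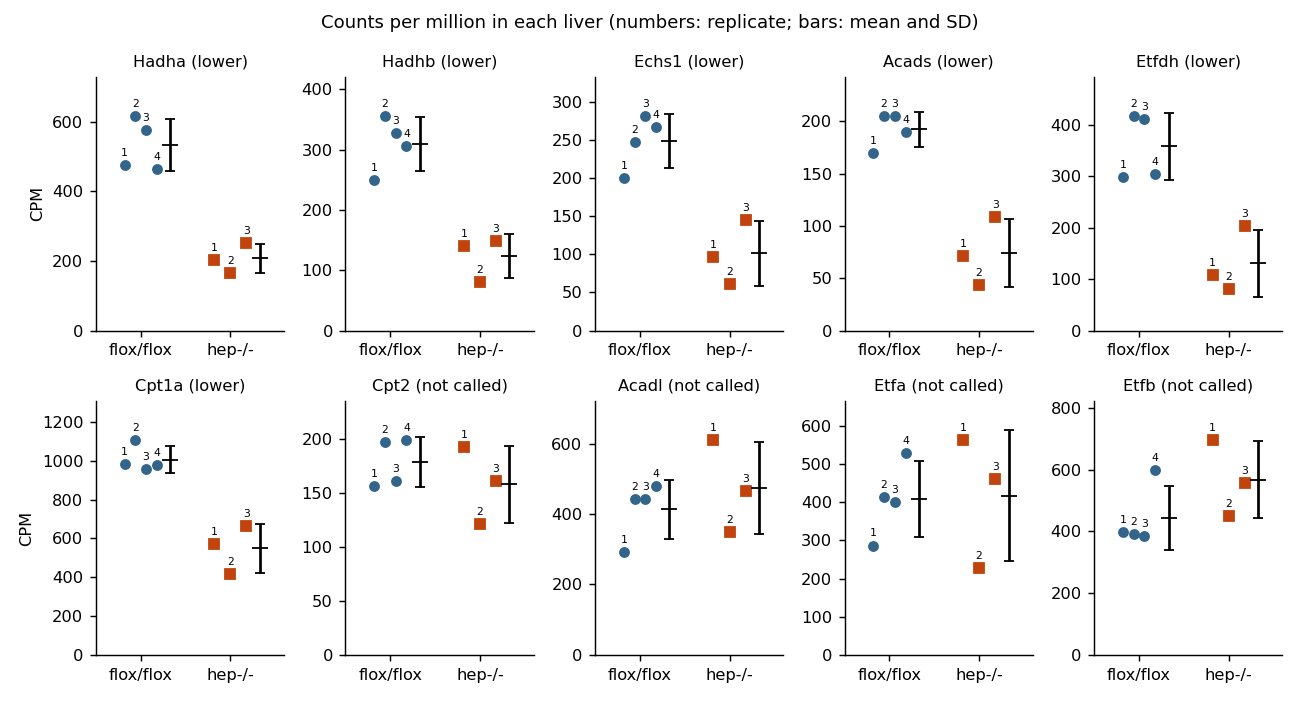
CPM (y axis, linear from 0) of 10 members in each liver of both groups (x axis), with the replicate number beside each point and the mean and SD as bars. The 6 genes called lower (Hadha, Hadhb, Echs1, Acads, Etfdh, Cpt1a) separate the groups, while Cpt2, Acadl, Etfa and Etfb overlap.

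In electron transfer, 1 of 3 genes was lower. Etfdh encodes the iron-sulfur flavoprotein of the inner membrane that passes electrons from electron transfer flavoprotein to ubiquinone. It stood at 300, 418, 412 and 305 CPM in flox/flox livers and at 108, 80.8 and 203 CPM in livers labelled hep-/-, a 2.75-fold lower level with no overlap (log2 fold change -1.46, SE 0.31, adjusted p = 0.0123 by edgeR). Etfa and Etfb encode the subunits of the flavoprotein itself. Etfa was at 287, 415, 401 and 530 CPM against 563, 228 and 461 CPM (0.03, SE 0.31). Etfb was at 398, 390, 385 and 599 CPM against 695, 448 and 558 CPM (0.36, SE 0.24). Both overlapped and neither was called, and the ratio of Etfa to Etfb overlapped too, at 0.721 to 1.06 and 0.509 to 0.827. For Etfb, 53.0% of the exonic bases belong also to Gm45233 on the same strand.

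None of the 3 ketone body genes was called by edgeR. Acat1, the thiolase that joins 2 acetyl-CoA at the start of ketogenesis and splits acetoacetyl-CoA at the end of ketone use, was at 445, 691, 607 and 728 CPM against 465, 280 and 492 CPM (log2 fold change -0.58, SE 0.26, adjusted p = 0.142 by edgeR), with overlap. Bdh1, which interconverts acetoacetate and beta-hydroxybutyrate, was at 413, 578, 427 and 512 CPM against 359, 199 and 319 CPM, below every control (-0.72, SE 0.25, adjusted p = 0.0662). Bdh1 was called lower by DESeq2 (-0.71, adjusted p = 0.0216) and in all 3 limma fits on FPKM, and Acat1 in 2 of the limma fits. Oxct1, which activates ketone bodies for oxidation outside the liver, was low in both groups at 16.4 to 34.9 CPM and 12.8 to 15.6 CPM, and its groups did not overlap (-0.64, SE 0.27, adjusted p = 0.126). Without flox/flox replicate 3, its highest liver, the value was -0.31 (adjusted p = 0.293 by edgeR). With all mice, the 3 had negative log2 fold changes, between -0.72 and -0.58, and missed the threshold on the adjusted p, which does not show that they were alike in the groups.

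The acyl-CoA thioesterases release free fatty acid from acyl-CoA. Acot2, the long-chain thioesterase of the matrix, stood at 57.0, 109, 74.6 and 81.4 CPM in flox/flox livers and at 253, 117 and 104 CPM in livers labelled hep-/-. Its mean was 196% of the control mean, largely through replicate 1 labelled hep-/-, while replicate 3 fell under flox/flox replicate 2, and it was not called (0.97, SE 0.32, adjusted p = 0.0563 by edgeR). It was called higher without replicate 2 labelled hep-/- (1.15, adjusted p = 0.0476) and without replicate 3 labelled hep-/- (1.19, adjusted p = 0.0375). Without replicate 1 labelled hep-/- it was 0.45 (adjusted p = 0.276). Of the 50-base words of its longest transcript, 24.6% occur in Acot1, its cytosolic relative, whose own log2 fold change was negative and not called (-0.88, SE 0.29, adjusted p = 0.0607).

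The other 2 thioesterases were not called by edgeR either, and Acot9 was called lower in 2 limma fits on FPKM. Acot9 overlapped at 10.9 to 16.7 CPM against 7.63 to 11 CPM (-0.60, SE 0.23, adjusted p = 0.0920 by edgeR), and Acot13 at 40.4 to 77.0 CPM against 58.7 to 95.0 CPM (0.35, SE 0.24). The thioesterases and the electron transfer flavoprotein thus hold 4 of the 7 positive log2 fold changes among the members.

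The Acsm genes encode medium-chain acyl-CoA synthetases, which activate fatty acids and carboxylic acids inside the mitochondrion. Acsm1 stood at 165, 167, 140 and 181 CPM against 95.1, 59.5 and 102 CPM, fully apart (-0.93, SE 0.22, adjusted p = 0.0200 by edgeR), and its call was lost without flox/flox replicate 2 (-0.93, adjusted p = 0.0582). Acsm5 stood at 67.2, 61.6, 58.7 and 70.6 CPM against 47.6, 41.6 and 41.5 CPM. It passed the p threshold (adjusted p = 0.0435) with a log2 fold change of -0.57 (SE 0.17), just short of the fold change threshold, and so was not called by edgeR. In all 3 limma fits on FPKM it was called lower, at -0.69 to -0.65. Acsm3 overlapped at 75.6 to 142 CPM against 63.5 to 126 CPM (-0.15, SE 0.28), and 39.7% of its exonic bases lie opposite exons of Eri2.

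**Figure D3:**
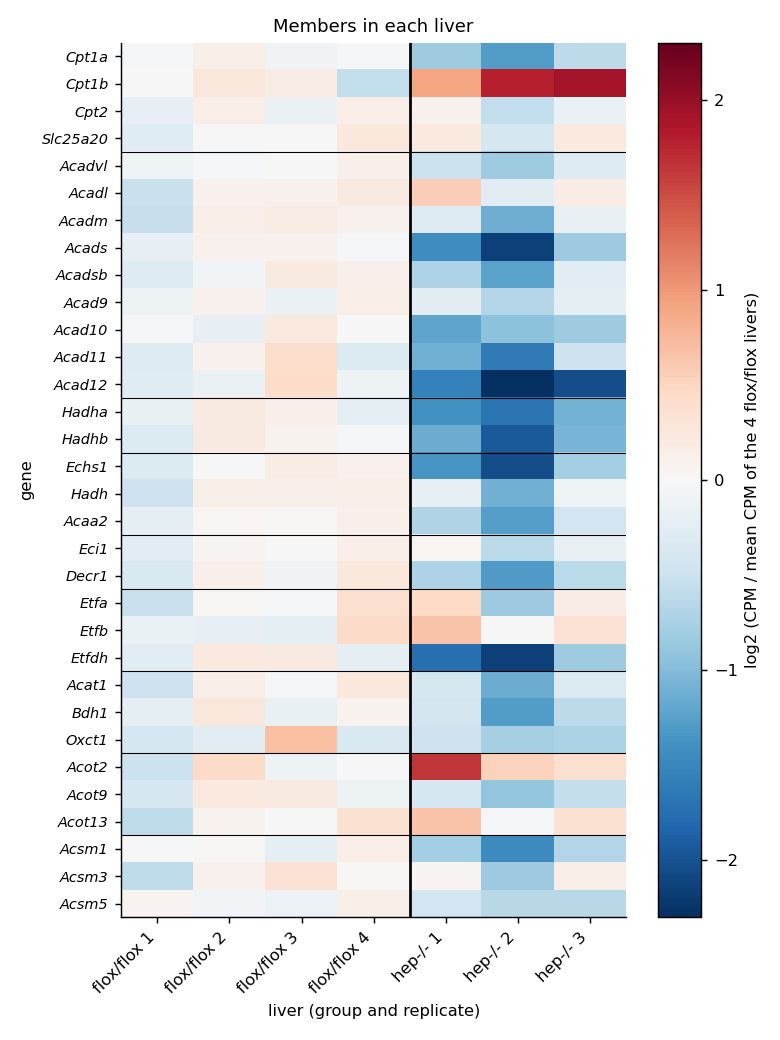
Each member (y axis) in each liver (x axis) as the log2 of its CPM over the mean of the 4 B4galt1 flox/flox livers, with blue for lower and red for higher. The column of replicate 2 labelled B4galt1 hep-/- is the darkest blue, and it was the lowest of its group for 28 of the 32 members.

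The livers differed among themselves across the whole pathway. Replicate 2 labelled hep-/- was the lowest of its group for 28 of 32 members and lay below every flox/flox liver for 27, against 18 for replicate 1 and 18 for replicate 3 of that group. Among controls, replicate 1 was the lowest for 23 members and the highest for 0. The median coefficient of variation of the members was 16.8% in flox/flox livers and 27.5% in livers labelled hep-/-, beside 21.4% and 24.9% for all genes tested. For these genes the mice labelled hep-/- thus varied more than the controls, a difference that was not tested.

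Summed over the 32 genes, the level was 7836, 10148, 9706 and 10122 CPM in flox/flox livers and 7459, 4609 and 7528 CPM in livers labelled hep-/-. The means were 9453 ± 1097 (SD, n = 4) and 6532 ± 1666 CPM (SD, n = 3), and no liver of the second group reached the first, although replicates 1 and 3 came close to flox/flox replicate 1. As a share of all counts the members took 0.895% to 1.05% and 0.499% to 0.674%, and as a share of counts outside the mitochondrial genome 0.947% to 1.09% and 0.641% to 0.871%. By step, the sum in livers labelled hep-/- was 39.2% of the control mean for the trifunctional protein, 60.7% for the short- and medium-chain enzymes, 64.1% for ketone bodies, 66.5% for the auxiliary enzymes, 67.0% for the carnitine shuttle, 67.9% for the medium-chain synthetases, 72.3% for the dehydrogenases and 92.2% for electron transfer. The sums of the dehydrogenases (1815 to 2544 CPM against 1170 to 1946 CPM) and of electron transfer (984 to 1434 CPM against 757 to 1366 CPM) overlapped between the groups, while those of the other 6 steps named so far did not. For the thioesterases it was 157%, with overlap between the groups (108 to 190 CPM against 183 to 359 CPM) and the highest sum in replicate 1 labelled hep-/-.

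**Figure D4:**
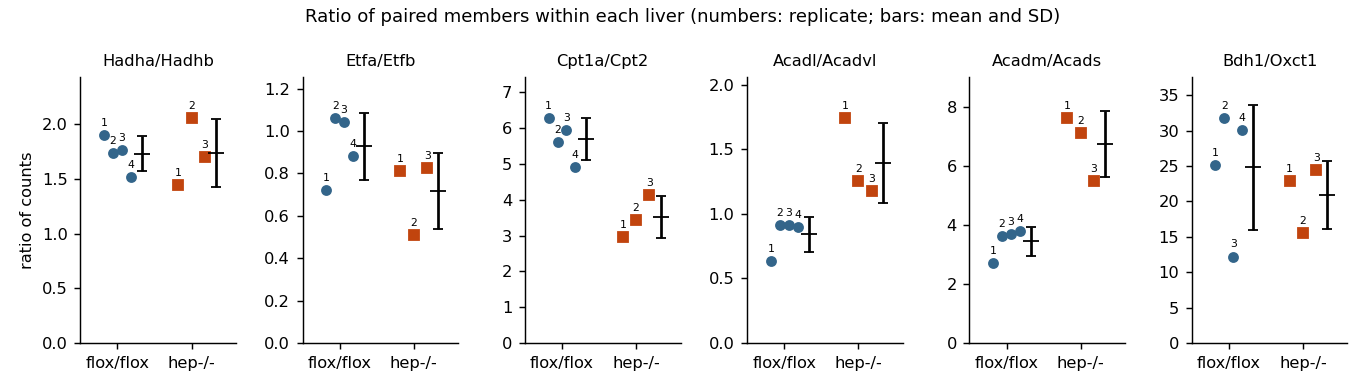
Ratio of the counts of 6 pairs of members within each liver (y axis, linear from 0) in both groups (x axis), with replicate numbers and the mean and SD as bars. Hadha/Hadhb, Etfa/Etfb and Bdh1/Oxct1 overlap between the groups, while Cpt1a/Cpt2 is lower and Acadl/Acadvl and Acadm/Acads are higher in every liver labelled B4galt1 hep-/-.

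By chain length, 4 of the 12 long-chain genes and 4 of the 10 medium- and short-chain genes were lower, with median log2 fold changes of -0.27 and -0.63. All 10 of the medium- and short-chain genes had negative values, against 7 of the 12 long-chain genes. Those 7 were Cpt1a, Cpt2, Acadvl, Acad9, Acad11, Hadha and Hadhb. The 5 long-chain genes with positive values were Cpt1b, which was near the floor, Slc25a20, Acadl and the thioesterases Acot2 and Acot13. The classes hold different steps, with the carnitine shuttle and the trifunctional protein only in the long-chain class. Of the 10 genes not assigned to a chain length, 4 were lower. The difference between these classes was not tested.

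Levels between genes can be compared per length, as the deposited FPKM (the count divided by gene length and library total). Acaa2 had the highest mean of the members in flox/flox livers at 612 ± 29.3 FPKM (SD, n = 4), followed by Etfb at 504 ± 82.5 and Acadm at 334 ± 59.9 FPKM. The ranges of Acaa2 (586 to 653 FPKM) and Etfb (433 to 620 FPKM) overlapped there. In livers labelled hep-/- Etfb stood first at 592 ± 89.8 FPKM (SD, n = 3), and after it came Acaa2 at 325 ± 58 FPKM, Acadl at 229 ± 47.6 FPKM and Acadm at 218 ± 49.2 FPKM, of which the last 2 did not differ beyond their spread. Cpt1a, at 207 ± 19.1 FPKM in flox/flox livers, did not differ there beyond the spread from Hadha at 204 ± 32.7 FPKM. The lowest were Cpt1b at 0.0755 FPKM, Oxct1 at 6.51 FPKM and Acad12 at 6.90 FPKM in flox/flox livers. The FPKM of Etfa, 43.2 ± 7.15 in flox/flox livers, was divided by a length of 9685 bases, as counts and FPKM imply, where GENCODE vM21 gives it 1835 exonic bases. Other members differed the other way, such as Hadha (2716 against 8730 bases), Echs1 (1502 against 8286) and Cpt1a (5043 against 7642). Comparisons between genes by FPKM thus depend on the lengths used.

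Over the 32 members, Spearman's rho of the log2 fold change was -0.24 with gene length and 0.11 with the GC content of the longest transcript, beside 0.05 and 0.11 over all genes tested. The members share libraries and depth, and the values are a description. Among the 12 lower genes the part of the exonic bases that another annotated gene overlaps was at most 6.55%, for Acad11.

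Promoter windows of 250 bases before the RefSeq start site were at hand for 26 of the 32 genes. AGGTCA, the half-site of nuclear receptors, was searched on both strands and found for 5 of the 26 (19.2%), namely Cpt1a, Echs1, Acsm1, Acadm and Acadvl, and in 14.0% of the 32851 windows of all genes. The motif of PPAR and RXR dimers, DR1, made of that half-site repeated in the same direction with any 1 base between, was found for 0 of the 26 and in 0.0335% of all windows. With the fourth letter of both repeats left free, DR1 was again found for 0 of the 26, and in 0.338% of all windows. Of the 10 lower genes with a window, 3 held the half-site. A match is no more than these letters in this window, and the lack of one says nothing of the factor.

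The windows of the 3 lower genes with a match follow, cut to the part that no GENCODE exon covers and read 5′ to 3′ along the gene, together with that of Acads, a lower gene without one. Capitals mark AGGTCA or, on the other strand, its reverse complement. The stretch of Cpt1a lies at chr19:3323051-3323284 on the plus strand, with the match from 94 to 89 bases before the start. That of Echs1 lies at chr7:140116477-140116671 on the minus strand (83 to 78 bases) and that of Acsm1 at chr7:119617562-119617780 on the plus strand (107 to 102 bases). That of Acads lies at chr5:115119347-115119596 on the minus strand, and all are on GRCm38.p6.
Cpt1a: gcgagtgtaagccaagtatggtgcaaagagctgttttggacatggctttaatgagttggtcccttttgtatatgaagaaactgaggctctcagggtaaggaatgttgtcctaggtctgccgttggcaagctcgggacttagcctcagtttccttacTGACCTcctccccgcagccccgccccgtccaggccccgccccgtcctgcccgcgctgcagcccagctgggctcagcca
Echs1: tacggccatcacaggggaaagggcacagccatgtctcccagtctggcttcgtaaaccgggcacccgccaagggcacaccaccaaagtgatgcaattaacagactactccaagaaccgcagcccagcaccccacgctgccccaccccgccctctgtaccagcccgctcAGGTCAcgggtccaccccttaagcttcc
Acsm1: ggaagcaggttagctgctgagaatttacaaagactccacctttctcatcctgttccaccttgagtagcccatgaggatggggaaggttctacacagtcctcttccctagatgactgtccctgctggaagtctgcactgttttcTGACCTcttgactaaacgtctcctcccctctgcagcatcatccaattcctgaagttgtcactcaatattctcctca
Acads: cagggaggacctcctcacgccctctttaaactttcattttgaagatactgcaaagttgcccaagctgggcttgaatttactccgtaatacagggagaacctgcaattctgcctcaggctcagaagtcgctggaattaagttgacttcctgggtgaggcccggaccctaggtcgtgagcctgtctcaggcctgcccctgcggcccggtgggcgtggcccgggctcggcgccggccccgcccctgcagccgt

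Of 18 related enzymes of mitochondrial fatty acid, branched-chain and ketone body metabolism outside the members, 3 were lower and 0 higher, with a median log2 fold change of -0.21. The 3 were Pccb, Pcca and Mmut, which act on propionyl-CoA and its product. Pccb, a subunit of propionyl-CoA carboxylase, stood at 113, 137, 168 and 133 CPM in flox/flox livers and at 58.8, 39.1 and 68.3 CPM in the others, 2.48-fold lower with no overlap (log2 fold change -1.31, SE 0.24, adjusted p = 0.00691 by edgeR). Pcca, the other subunit, was at 49.5, 57.6, 62.7 and 53.7 CPM against 23.9, 15.6 and 32.5 CPM (-1.22, SE 0.24, adjusted p = 0.00939). Mmut, the mutase, was at 124, 174, 202 and 166 CPM against 87.5, 47.1 and 100.2 CPM (-1.09, SE 0.27, adjusted p = 0.0236). All 3 separated the groups. Mcee, the epimerase that acts between the carboxylase and the mutase, had a mean of 43.4 CPM in flox/flox livers and 62.8 CPM in the others and was not called (0.53, SE 0.23, adjusted p = 0.134).

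Of 10 regulators of the pathway, 1 was lower and 0 were higher. It was Rxra, the dimer partner of PPARalpha and other nuclear receptors, at 383, 305, 294 and 321 CPM against 151, 128 and 162 CPM (log2 fold change -1.15, SE 0.20, adjusted p = 0.00605 by edgeR). Ppara itself overlapped at 255 to 309 CPM against 206 to 273 CPM (-0.19, SE 0.19, adjusted p = 0.515).

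Of 17 PPARalpha target genes outside the members, 4 were lower and 0 higher, with a median of -0.41. They were Ehhadh, the peroxisomal bifunctional enzyme (-1.66, SE 0.28, adjusted p = 0.00572 by edgeR), Cd36, a fatty acid transporter (-1.32), Plin2, a lipid droplet coat protein (-1.06), and Cyp4a14, an omega-hydroxylase (-0.72). Of the 17, 10 had negative and 7 positive log2 fold changes. In 7 every liver labelled hep-/- lay below every flox/flox liver, against 15.0% of all genes tested, and in 2 every such liver lay above, against 13.6%. Among the positive ones, the known targets Pdk4 (0.90, SE 0.41) and Fgf21 (0.68, SE 0.29) overlapped between the groups and were not called.

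Of 21 nuclear genes that gauge mitochondrial content in general, 9 were lower, 0 were higher and all 21 had negative log2 fold changes, with a median of -0.59, the same as that of the members to 2 decimals. The largest changes among the 9 were those of Timm23, an import channel subunit (-1.61, SE 0.24, adjusted p = 0.00380 by edgeR), Sdha, the flavoprotein of succinate dehydrogenase (-1.33), Hspa9, a matrix chaperone (-1.27), Atp5a1, a subunit of ATP synthase (-1.03), Slc25a5, an ADP/ATP carrier (-0.94), and Lonp1, a matrix protease (-0.72). Their summed level ranged from 4629 to 5539 CPM in flox/flox livers and from 2337 to 4240 CPM in the others. Cs, the citrate synthase often used as a measure of mitochondrial mass, overlapped and was not called (-0.10, SE 0.21).

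The 13 protein-coding genes of the mitochondrial genome went the other way, with 12 called higher, 0 lower and a median log2 fold change of 1.92. They took 3.88% to 8.0% of the counts in flox/flox livers and 14.4% to 22.6% in those labelled hep-/-. With these genes left out before scaling, 12 members were lower and 0 higher, and the median over the members was -0.59. That fit shifted the log2 fold changes of all genes by a median of 0.0024. The part of the mitochondrially encoded genes in the values of the members was not tested.

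**Figure D5:**
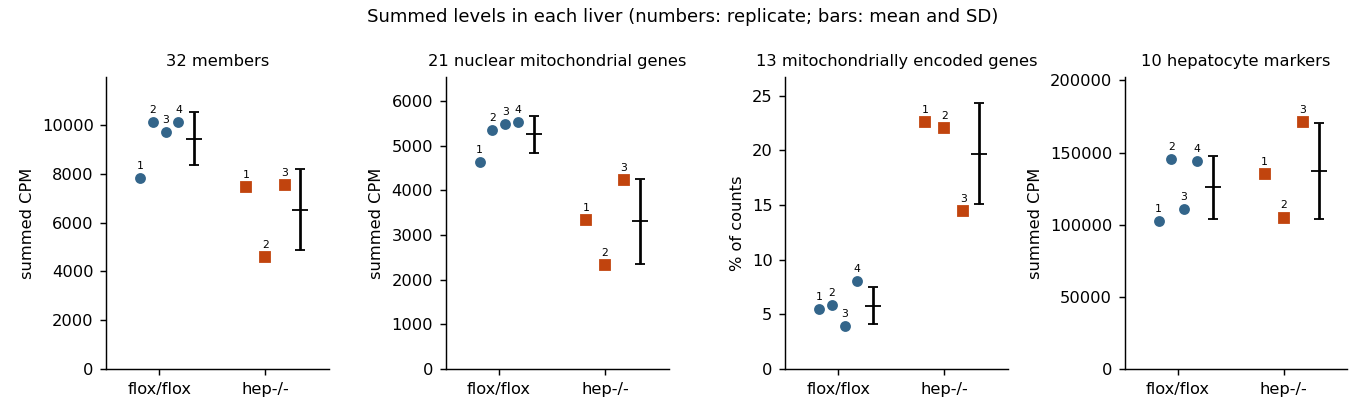
Summed levels in each liver of both groups (x axis) for the 32 members, 21 nuclear genes of mitochondrial content and 10 hepatocyte markers (y axes, CPM) and for the 13 mitochondrially encoded genes (y axis, % of counts), with replicate numbers and the mean and SD as bars. The first 2 sums are lower and the mitochondrially encoded share higher in every liver labelled B4galt1 hep-/-, while the hepatocyte markers overlap.

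Markers of the cell types of the liver were read beside these values. The 10 hepatocyte markers summed to 102812 to 145259 CPM in flox/flox livers and 104967 to 171422 CPM in livers labelled hep-/-, and 1 of them, Cyp2e1, was lower. Alb alone held 57197 to 90888 CPM and 70086 to 112935 CPM of these sums. Of the 10 markers, 5 had negative and 5 positive log2 fold changes, and 1, Apoa1, lay above every control. Of 8 macrophage markers 5 were lower, with a sum of 1099 to 2417 CPM against 495 to 562 CPM. Of 5 endothelial markers 1, Kdr, was lower, and 0 of 6 lymphocyte, 7 stellate and 5 cholangiocyte markers were called. The summed ranges of the lymphocyte (48.7 to 76.2 and 64.2 to 109.8 CPM), stellate (357 to 751 and 343 to 816 CPM), cholangiocyte (253 to 656 and 259 to 870 CPM) and endothelial markers (69.3 to 242 and 97.5 to 112 CPM) overlapped. Most of the lymphocyte sum was Ptprc (39.3 to 56.8 and 50.9 to 78.0 CPM), and most of the cholangiocyte sum was Spp1 (240 to 621 and 236 to 797 CPM). The part of the lower macrophage level in the values of the members was not tested.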

How the data were processed

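Liver RNA of 7 mice was analysed. The authors deposited counts, whole numbers per gene and library without normalization, and FPKM values of the same genes. Among 13374 genes that reached 10 counts in all mice, the deposited FPKM equalled the count divided by 1 length per gene and by the library total, with 0 genes beyond 1 percent. The submitters' processing notes name fastp, HISAT2, HTSeq, DESeq2, R 3.2.0 and the build GRCm39. The strand setting of the counting is not given in the sources used here. Since the reference at hand was GRCm38, coordinates are given only for the printed promoter stretches, credited to RefSeq on GRCm38.p6, and not for whole genes.

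Genes were kept by filterByExpr (minimum count 10, minimum total 15), scaled by TMM and compared between the groups by the quasi-likelihood test of edgeR 4.0.16 (R 4.3.3), with no covariate and with Benjamini-Hochberg adjustment over all 15179 genes. Called means that the adjusted p was below 0.05 and the log2 fold change beyond 0.58 in either direction, the thresholds of the study. Standard errors come from the F statistic. No test was run over the list of members. As alternatives, DESeq2 1.42.0, scaling by RLE or the upper quartile, other filters, no fold change threshold, limma 3.58.1 on FPKM with a pseudocount of 1 or 0.1 before log2, the mitochondrially encoded genes left out, the replicate number as a block and leaving out each mouse were tried. The edgeR script was tested on simulated data first. All 32 members were named, and of each further list outside the cell type markers at most the 6 called genes with the largest change, besides Ppara, Mcee, Cs, Pdk4, Fgf21 and Acot1, which were chosen after their values were seen. The members and lists were chosen with earlier results of these data known. Exon overlaps and shared 50-base words came from GENCODE vM21. Some genes are not reported here. The listed genes Trbc2, Myh1, Myh4 and Lep had no row in the table.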

Additional observations from a re-analysis of the deposited data

Results flagged for a closer look

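In 4 members 1 of the 4 B4galt1 flox/flox livers stood apart from the other 3 by more than Dixon's 95% limit for groups of 4, a limit that chance passes in about 1 group of 20. Acadm was at 461 CPM in replicate 1, with the others at 716 to 754 CPM. Hadh was at 308 CPM in the same liver, with the others at 462 to 476 CPM. Etfb was at 599 CPM in replicate 4, with the others at 385 to 398 CPM. Oxct1 was at 34.9 CPM in replicate 3, with the others at 16.4 to 18.1 CPM. None of the 4 genes was called by edgeR, and Acadm was called lower in 2 limma fits on FPKM. The group of 3 livers labelled B4galt1 hep-/- was too small for this limit.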

How the results depend on the processing

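The number of members called lower was 12 in the main fit and 7 to 13 with 1 mouse left out. It was 19 of 31 tested under limma on log2(FPKM + 1) and on log2(FPKM + 0.1). DESeq2 called 14, the replicate block 8 and the other alternatives 11 to 15. The share of all genes called lower was 7.83% in the main fit and 3.16% to 7.51% with 1 mouse left out. It was 15.9% and 17.8% under these limma fits, 10.3% under DESeq2, 4.05% with the replicate block and 4.74% to 8.88% in the other alternatives. These limma fits tested 10914 genes and shifted the median of all genes by -0.12 and -0.13. They called 1733 and 1946 genes lower and 561 and 601 higher, beside 1189 and 1215 of 15179 in the main fit. Acot2 made the number called higher 1 in place of 0 under DESeq2, with a filter of 1 count in any mouse and with a filter of 10 counts in every mouse, and the number ran from 0 to 1 with 1 mouse left out. Numbers called among all genes fell to 615 lower and 652 higher with the replicate block and to 474 and 411 without flox/flox replicate 2. The labels do not say whether mice of equal replicate number belong together. Deviations from the group means correlated at -0.34, -0.03 and 0.08 between same-numbered mice. The highest correlation, 0.49, was between flox/flox replicate 1 and replicate 2 labelled hep-/-. Deviations within a group are tied to each other, so these values cannot settle whether the mice were paired. The sign turned for 4 uncalled members. On log2(FPKM + 1), with the filter and without it, and on log2(FPKM + 0.1), Slc25a20 was at -0.093, -0.093 and -0.094 and Etfa at -0.153, -0.153 and -0.158. With 1 mouse left out, Slc25a20 ran from -0.065 to 0.221, Acadl from -0.037 to 0.378, Etfa from -0.259 to 0.327 and Acsm3 from -0.327 to 0.103. With the mitochondrially encoded genes left out before scaling, the mean summed member level moved from 9453 to 10735 CPM in flox/flox livers. In livers labelled hep-/- it moved from 6532 to 7445 CPM. The second mean was then 69.4% of the first, beside 69.1% in the main fit and 62.6% with raw library totals. The median over the members stayed between -0.71 and -0.46 in every alternative. The cause of these differences was not tested.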
